A study of Mus musculus with 6 samples.

Results

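The genes described here are 10 genes of cytotoxic granules and of the Ctla2 pair (Ctla2a, Ctla2b, Ctsw, Gzma, Gzmb, Gzmk, Prf1, Nkg7, Srgn and Serpinb9), out of 18193 mouse genes measured on the arrays. They were chosen by symbol with earlier values of the same comparison known, the large difference of Ctla2a among them, so their differences between groups are given as a description with no p-value. The platform table assigned 13 of the 45101 probe sets to these symbols, and 1 of the 13 was assigned to both Ctla2a and Ctla2b. The arrays, 3 for each of 2 groups, hold RNA of regulatory T cells (Treg), the CD4+ subset defined by Foxp3, from mesenteric lymph nodes of animals 4 to 6 weeks old. The induced Treg (iTreg) were Foxp3 GFP+, Nrp- cells of TBmc mice on the Balb/c background, which carry a single ovalbumin-specific T cell receptor and a single B cell receptor, after 1 week of 1% ovalbumin given orally. The other group, total Treg, came from Balb/c wild-type (WT) Foxp3 GFP mice, for which the labels give no feeding. Both groups thus share the Foxp3 GFP reporter, the organ and the age range, while receptor, genetic background of the lymphocyte compartment, feeding and gate differ together and cannot be told apart. The question is what sets peripherally induced Treg apart from the whole pool. The labels do not say whether arrays came from separate mice or from pools.

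Cytotoxic lymphocytes keep perforin and granzymes, a family of serine proteases, in secretory granules on a scaffold of serglycin. On contact with a target cell perforin opens its membrane and the granzymes enter, and the serpin Serpinb9 protects the killer cell from its own granzyme B. Some Treg use perforin and granzymes against effector cells. Ctla2a and Ctla2b were found in activated T cells and resemble the propeptide of cysteine proteases of the cathepsin L type, which Ctla2a inhibits.

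In the RefSeq annotation Ctla2b and Ctla2a lie close together on chromosome 13 with only Tpbpb between them among protein-coding genes, Gzma and Gzmk are direct neighbours on that chromosome, and Gzmb lies beside Gzmc on chromosome 14. RefSeq promoter windows were found for 9 of the 10 genes. The windows of the Ctla2 pair are shown because the platform table assigns 1 probe set to both genes, and they show how alike the copies are upstream of the start. Each gives 250 bases before the annotated start of transcription that lies farthest upstream, 5′ to 3′ on the minus strand of GRCm38.p6, a C57BL/6J genome and not that of the mice used here. Ctla2a is at chr13:60936626-60936875 and Ctla2b at chr13:60897448-60897697. Capitals mark the letters of an AP-1 motif (TGANTCA) and of part of a CRE motif (TGACGT). A CRE match below means these letters only, not the full element.
Ctla2a: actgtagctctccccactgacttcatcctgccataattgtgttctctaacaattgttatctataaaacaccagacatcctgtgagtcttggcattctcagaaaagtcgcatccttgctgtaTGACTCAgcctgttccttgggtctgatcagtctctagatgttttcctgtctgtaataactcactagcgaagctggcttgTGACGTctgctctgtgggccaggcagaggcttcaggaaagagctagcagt
Ctla2b: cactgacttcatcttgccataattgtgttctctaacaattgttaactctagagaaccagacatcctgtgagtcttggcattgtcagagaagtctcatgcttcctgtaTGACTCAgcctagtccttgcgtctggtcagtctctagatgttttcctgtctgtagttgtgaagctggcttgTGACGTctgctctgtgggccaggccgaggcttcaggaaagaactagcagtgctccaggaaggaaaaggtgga
In a global alignment of 272 columns, 208 of the 228 positions aligned without a gap were identical, or 91.2%. The other columns were gaps and are left out of that share. Both windows hold 1 AP-1 and 1 CRE match. On either strand, TGANTCA is found in 6.75% and TGACGT in 6.47% of all 32851 promoter windows of that length. Among the other members Gzmb holds an AP-1 and Prf1 a CRE match. The RUNX letters TGTGGT (14.0% of all windows) are found in Gzma, Gzmb, Prf1 and Nkg7, and the T-box letters GGTGTGA (3.33%) in Gzmk and Nkg7. These matches describe the letters alone.

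Signals are MAS5 values on a linear scale, and differences are iTreg minus WT Treg on the log2(signal + 16) scale, which understates the change of dim genes. Where a gene had several probe sets, the brightest on average over the 6 arrays stands for it. Background was read from 27 probe sets for bacterial transcripts that were not added to the samples, whose highest signal was 28.5. Of the 10 genes 6 lay above that limit on all 6 arrays: Ctla2a, Ctsw, Gzmb, Prf1, Srgn and Serpinb9. Each of the other 4 fell within the control range on 1 array, namely Ctla2b on WT replicate 3, Gzma and Gzmk on WT replicate 2 and Nkg7 on iTreg replicate 2. All 10 passed the filter on low values. That filter, at a mean of 4.99 on the log2(signal + 16) scale, lay below the control limit of 5.48, so passing it does not show detection. For 2 arrays a label goes against the title: iTreg replicate 1 lacks TBmc in its strain label, and WT replicate 1 carries the Nrp- label. The median signal per array ranged from 21.1 to 32.3, and the spike-in controls were brightest on the replicate 3 array of each group in the deposited values. RNA quality, read as the 3′ to 5′ ratio of Gapdh signals on the log2 scale, was 3.06, 2.48 and 3.38 in iTreg against 2.28, 2.53 and 2.34 in WT Treg (exact permutation p = 0.2, two-sided; 0.1 is the smallest that 3 against 3 arrays can give). Its part in the differences below was not tested.

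**Figure D1:**
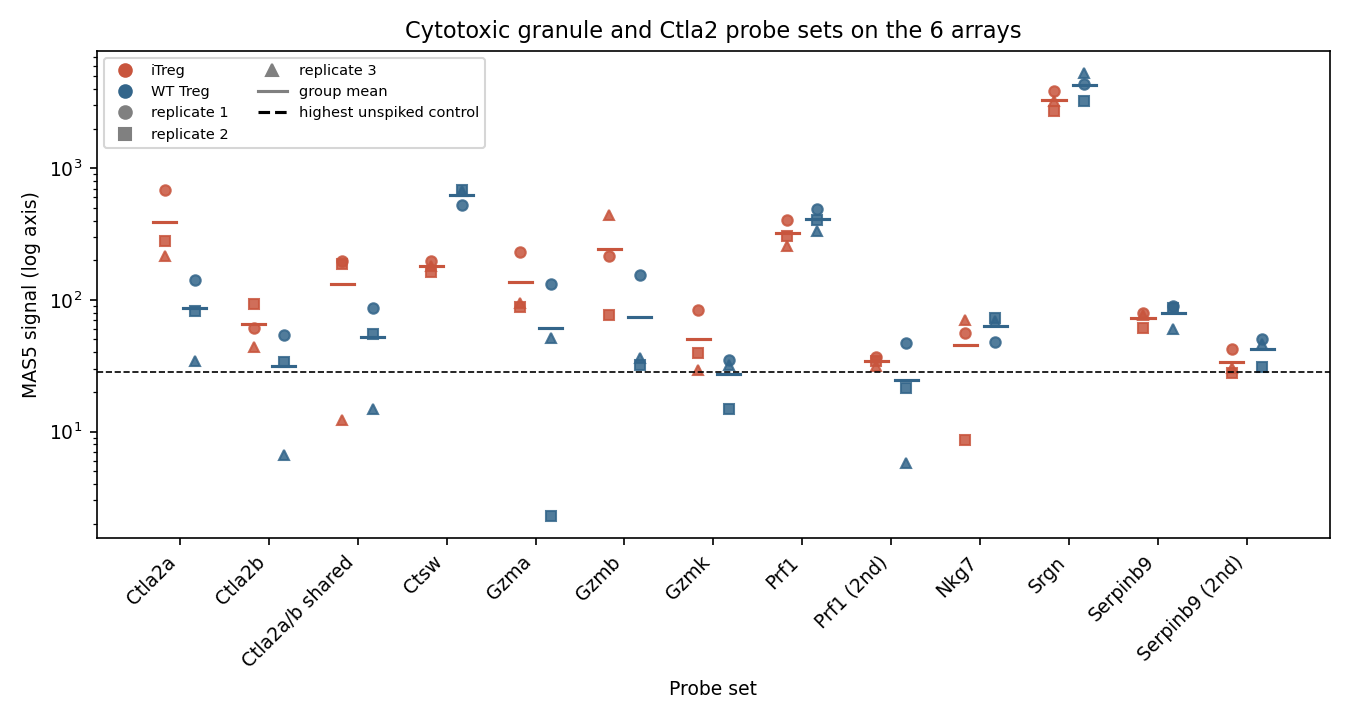
MAS5 signal (log axis) of the 13 probe sets on the 3 iTreg and 3 WT Treg arrays, with marker shape for the replicate number, short lines for group means and a dashed line at the highest unspiked control (28.5). Ctla2a lay higher and Ctsw lower on every iTreg array than on every WT array, while the other probe sets overlapped between groups.

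Ctla2a gave the largest positive difference of the 10 genes. Its signal was 678, 278 and 217 in iTreg, in the order of replicates 1 to 3, against 143, 82.8 and 34.0 in WT Treg. The lowest iTreg array thus lay above the highest WT array, yet the spread within each group was wide, with iTreg replicate 1 and WT replicate 1 highest. The mean was 391 ± 250.4 (SD, n = 3) in iTreg and 86.5 ± 54.3 in WT Treg, a ratio of means of 4.52, and the log2 difference was 1.97 (standard error 0.52). It ranged from 1.504 without iTreg replicate 1 to 2.37 without WT replicate 1. Its variation within groups exceeded that of 92.2% of the genes tested.

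Ctla2b, the paralog, had signals of 60.8, 93.5 and 44.0 in iTreg against 54.4, 33.6 and 6.68 in WT Treg. The groups overlapped, since iTreg replicate 3 lay below WT replicate 1. The log2 difference was 0.89 (standard error 0.47), and 0.43 without WT replicate 3, the array within the control range. The probe set assigned to both genes gave 196, 186 and 12.2 in iTreg against 87.3, 55.0 and 14.8 in WT Treg, a difference of 0.81. On the replicate 3 arrays of both groups it lay within the control range. The probe set named for Ctla2a alone read 217 on that same iTreg array. Each probe set has its own response, so the levels themselves cannot be set against each other, but the pattern over arrays was unlike. How far each probe set also reads the paralog was not tested, so the values of both genes are uncertain to that extent.

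Cathepsin W (Ctsw), a papain-like cysteine protease found in killer lymphocytes, lay the other way. Its signal was 198, 163 and 179 in iTreg against 522, 678 and 675 in WT Treg. All 3 iTreg arrays were close together and far below every WT array. The mean was 179.9 ± 17.4 (SD, n = 3) against 625 ± 89.6, a WT to iTreg ratio of 3.47, and the log2 difference was -1.70 (standard error 0.30). Variation within groups was smaller than for most genes, only 4.42% of those tested varying less. Over 21 alternatives the difference stayed between -1.89 and -1.49, with -1.83 to -1.64 when single arrays were left out. Some of the 21, such as other filters on low values, cannot change a difference of means, so their number does not measure how stable it is. The array labelled Nrp- among the WT, replicate 1, was the lowest of its group.

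The 3 granzymes on the list had higher means in iTreg, with groups that overlapped. Gzmb, which cleaves after aspartate and starts apoptosis, had signals of 215, 76.9 and 442 in iTreg against 154, 32.1 and 36.3 in WT Treg. WT replicate 1 therefore lay above iTreg replicate 2. The mean was 244 ± 184 (SD, n = 3) against 74.2 ± 69.3, and the log2 difference of 1.51 had a standard error of 0.62. It was 0.96 without iTreg replicate 3 and 0.69 without both replicate 3 arrays.

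Gzma, a tryptase, had signals of 229, 87.5 and 94.9 in iTreg against 131, 2.29 and 51.6 in WT Treg. WT replicate 1 lay above iTreg replicates 2 and 3. The log2 difference was 1.32 (standard error 0.66), and it was 0.50 without WT replicate 2, whose signal was within the control range, and 2.0 without WT replicate 1. Gzmk, a tryptase encoded beside Gzma, had signals of 83.3, 39.8 and 29.3 in iTreg against 35.2, 14.9 and 31.9 in WT Treg. These values lay near the control range apart from iTreg replicate 1, and the log2 difference of 0.58 (standard error 0.41) became 0.25 without that array and 0.35 without WT replicate 2.

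Granzyme signals varied widely between arrays of the same group. Variation within groups exceeded that of 98.9% of genes tested for Gzma, 98.0% for Gzmb and 60.7% for Gzmk. The mean log2 signal of the 3 granzymes was 7.47, 6.34 and 7.04 in iTreg, in the order of replicates 1 to 3, against 6.76, 4.91 and 5.79 in WT Treg. Thus WT replicate 1 lay above iTreg replicate 2. Over all 10 genes, iTreg replicate 1 was the highest array of its group for 7. WT replicate 1 was highest for 7, Prf1 and Serpinb9 among them, and lowest for 2, Ctsw and Nkg7. The same counts over all genes were not made, so nothing is read from them. Both arrays have labels that disagree with their groups. Without both, the differences of Gzma, Gzmb and Gzmk were 1.61, 2.04 and 0.39.

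Perforin, serglycin and Nkg7 had lower means in iTreg on the probe sets used, with groups that overlapped. Prf1, perforin, had signals of 406, 306 and 257 in iTreg against 486, 402 and 335 in WT Treg. All 6 arrays were well above the control limit, the groups overlapped and the log2 difference was -0.33 (standard error 0.32). Its other probe set was dim (31.7 to 36.6 in iTreg, 5.73 to 46.8 in WT Treg) and gave 0.44, so that the mean of both probe sets gave 0.054 and the sign of Prf1 depends on the probe set.

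Srgn, the serglycin core protein that holds granule contents, had signals of 3829, 2718 and 3263 in iTreg against 4320, 3225 and 5288 in WT Treg. The difference was -0.37 with a standard error of 0.28, and -0.20 without WT replicate 3. Nkg7, a membrane protein of cytotoxic granules, had signals of 56.4, 8.62 and 70.8 in iTreg against 47.6, 72.5 and 69.4 in WT Treg. A single array, iTreg replicate 2, set its difference of -0.55, which was 0.017 without it.

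Serpinb9, the granzyme B inhibitor, had the smallest difference between groups of the 10, in either direction. Its signal was 79.9, 61.6 and 76.4 in iTreg against 89.3, 86.6 and 60.5 in WT Treg, a difference of -0.089 with a standard error of 0.38. Its other probe set had signals of 42.4, 28.03 and 30.3 in iTreg against 50.2, 30.9 and 46.6 in WT Treg, and differed by -0.24. The standard error was larger than the difference, which does not show equal levels, and the sign changed without iTreg replicate 2 (0.0042).

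**Figure D2:**
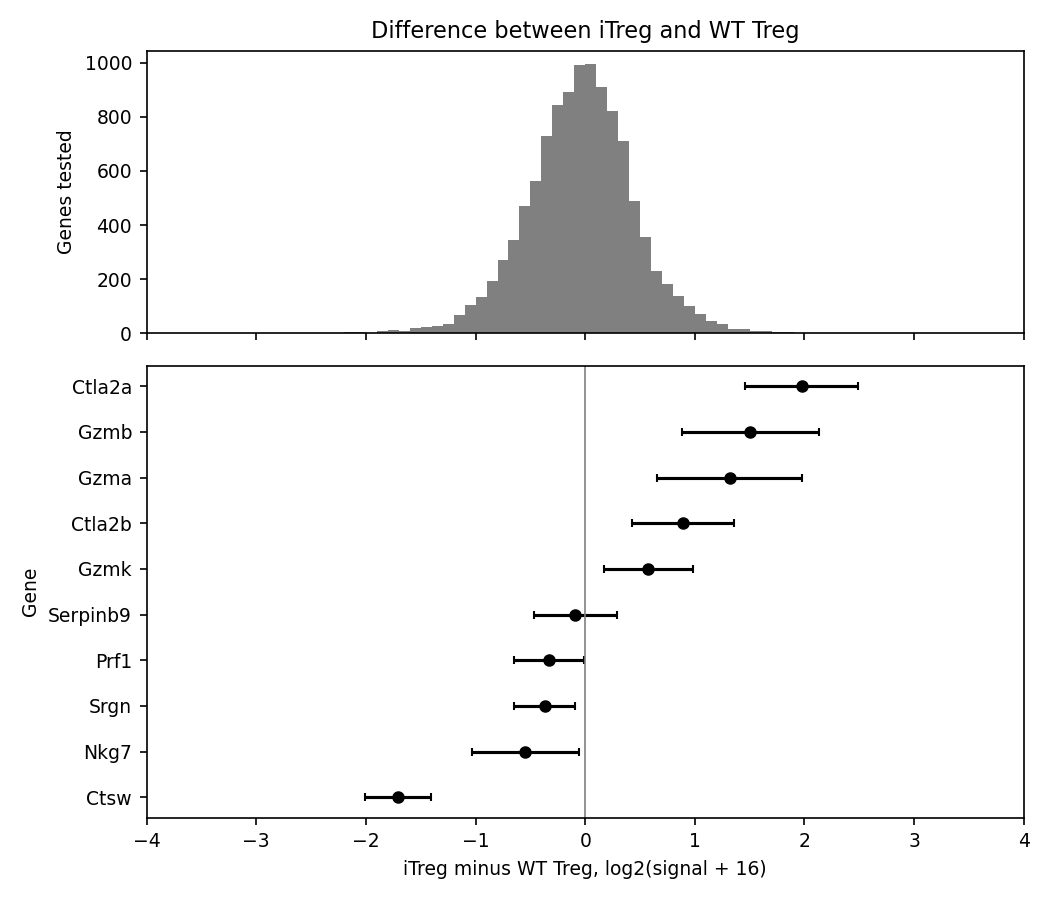
Top, histogram of the log2 difference (iTreg minus WT Treg) over the 10916 genes tested; bottom, the same difference for the 10 genes, with bars for the standard error of the limma fit. Ctla2a (1.97), Gzmb (1.51) and Gzma (1.32) lie in the right tail and Ctsw (-1.70) in the left tail, and the bars of Gzma and Gzmb are the widest.

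As a group the 10 genes did not move one way. 5 had a positive and 5 a negative difference, with a median of 0.24, against 5151 positive and 5765 negative and a median of -0.030 over all 10916 genes tested. The sign of that median rests on which genes are counted. It was -0.21 over the 8 genes left when probe sets with names ending in _a_at, _s_at or _x_at were dropped. That rule removes Ctla2a and Gzma by the form of the name, which was not tested as a measure of how specific a probe set is. Among all genes tested, 99.9% had a smaller (more negative) difference than Ctla2a, 99.7% than Gzmb and 99.4% than Gzma, and 0.421% than Ctsw.

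In limma's fit over all genes 0 of the 10 were called at an adjusted p under 0.05, where 0.0275% of all genes were called. At an unadjusted p under 0.05 Ctla2a, Gzmb and Ctsw passed, where 7.59% of all genes did, and the test with separate variances per group called 0, with 2 at that unadjusted threshold. Groups did not overlap for Ctla2a on the higher side (5.10% of all genes) and Ctsw on the lower side (7.78%). Since this comparison served to choose the genes, nothing is read from these counts. With array weights Ctsw was called, and in the other 20 alternatives no member was.

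**Figure D3:**
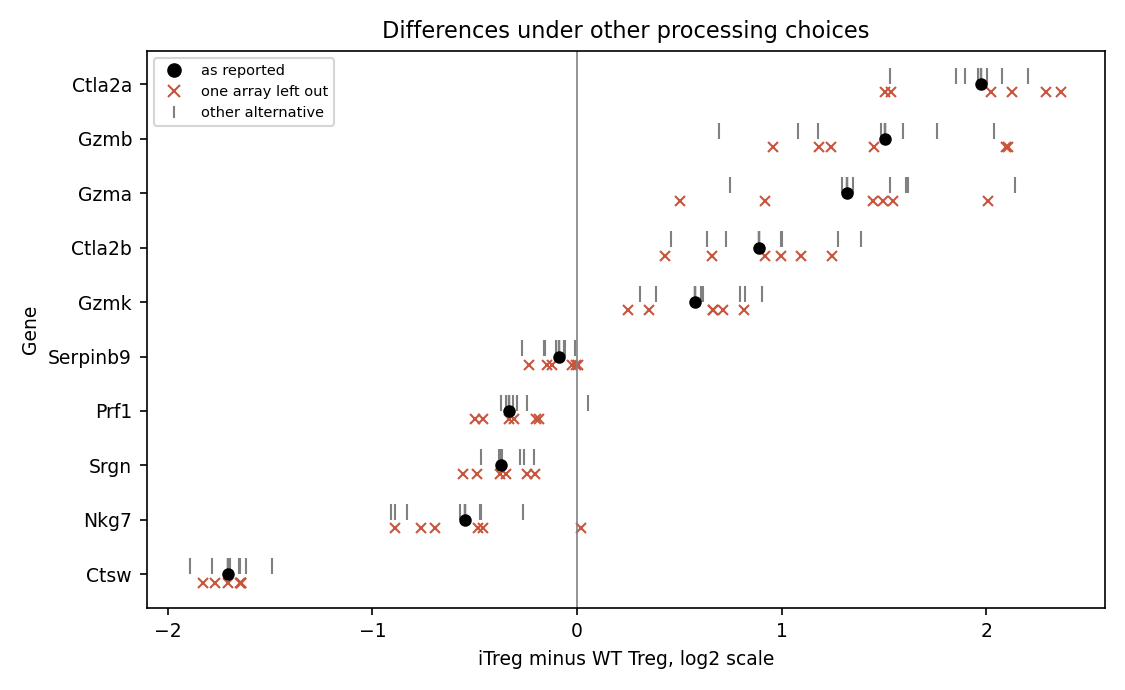
Log2 difference of each of the 10 genes as reported (black dots), with 1 array left out (crosses) and under the other alternatives (grey ticks). The values of Ctsw stay within -1.89 to -1.49, those of Gzma spread from 0.50 to 2.14, and those of Prf1, Nkg7 and Serpinb9 reach or cross 0.

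Other genes of the granule pathway were described from lists chosen with earlier results known. Over all genes tested, 3.0% were higher and 4.58% lower at an unadjusted p under 0.05. Of the 7 other granzymes only Gzmm passed the filter, with a difference of 0.45 (limma adjusted p = 0.855) that rests on iTreg replicate 3, at a signal of 77.9 where the other 5 arrays were at 7.65 to 20.0. The remaining 6, Gzmc among them, were below the filter.

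Of the 14 lysosomal proteases 10 were tested, limma called 0 and none passed an unadjusted p under 0.05; the median difference was -0.14. Cathepsin L (Ctsl), a protease of the kind that Ctla2a inhibits, had signals of 141, 209 and 84.4 in iTreg against 271, 262 and 115 in WT Treg. The groups overlapped, and its difference was -0.52 (standard error 0.44; limma adjusted p = 0.834). It became -0.22 without iTreg replicate 3 and -0.89 without WT replicate 3. Cathepsin B (Ctsb) differed by -0.41 (limma adjusted p = 0.804), and by -0.12 without iTreg replicate 1. Its other probe sets gave -1.0, -1.0, -1.0 and 0.42. Those at -1.0 were lower and that at 0.42 higher on every iTreg array than on every WT array, the latter above the control limit on 1 array. Ctss and Ctsz differed by -0.16 and -0.22 (limma adjusted p = 0.910 and 0.912), and the other probe sets of Ctsz by 0.54 and 0.45.

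Of 21 cystatins and serpins 6 were tested and limma called 0, with 0 higher and 1 lower at an unadjusted p under 0.05 and a median of -0.30. The one was Cst7, cystatin F, an inhibitor of cathepsins in granules of killer cells. Its signal was 69.7, 113 and 26.3 in iTreg against 326, 174 and 211 in WT Treg. All iTreg arrays lay below every WT array, and iTreg replicate 3 was within the control range. The difference was -1.66 (standard error 0.47, limma adjusted p = 0.398). Cst3 differed by -0.71 (limma adjusted p = 0.693).

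Of 22 genes of granule transport and fusion 19 were tested and limma called 0, with 1 higher and 0 lower at an unadjusted p under 0.05, 6 positive and 13 negative and a median of -0.20. Lyst, a regulator of lysosome size, had signals of 257, 203 and 256 in iTreg against 132, 149 and 86.9 in WT Treg. Every iTreg array lay above every WT array, with a difference of 0.90 (standard error 0.36, limma adjusted p = 0.613), and its other probe sets gave 0.53 and 0.38. The fusion proteins Snap23, Vti1b and Vamp8 differed by 0.76, -0.69 and -0.35 (limma adjusted p = 0.681, 0.681 and 0.809), and the other probe sets of Snap23 by -0.29 and 0.43. Vti1b was lower on every iTreg array than on every WT array, and its difference was -0.39 without iTreg replicate 3.

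Among death ligands and cytokines 6 of 7 were tested and limma called 0, with 0 higher and 1 lower at an unadjusted p under 0.05 and a median of -0.086, which was 0.033 without iTreg replicate 1. Tnf differed by -1.07 (limma adjusted p = 0.623), with 1 of 3 iTreg arrays above the control limit. Ifng was above that limit on 3 of 6 arrays. Ifng differed by 1.16 (limma adjusted p = 0.681), with iTreg replicate 1 at a signal of 146 and WT replicate 3 at 2.55. Without iTreg replicate 1 it was 0.55. Of 5 chemokines only Ccl5 was tested, with a difference of -0.18 (limma adjusted p = 0.955) whose sign changed when single arrays were left out.

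Transcription factors of the cytotoxic programme differed in both directions. Of 11 listed 9 were tested and limma called 0, with 2 higher and 2 lower at an unadjusted p under 0.05 and a median of -0.085, which took either sign over the alternatives. Eomes, which drives granzyme and perforin genes in killer cells, had signals of 248, 179 and 364 in iTreg against 99.8, 129 and 51.0 in WT Treg. All iTreg arrays lay above all WT arrays, with a difference of 1.37 (standard error 0.42, limma adjusted p = 0.457), and its other probe set gave 1.33. Nfil3 had signals of 38.6, 106 and 35.4 in iTreg against 185, 179 and 183 in WT Treg. All iTreg arrays lay below all WT arrays, with a difference of -1.50 (standard error 0.43, limma adjusted p = 0.405). Bhlhe40 differed by -1.14 (limma adjusted p = 0.642), with iTreg replicate 3 within the control range at a signal of 20.5. Hopx differed by 2.39 (limma adjusted p = 0.598). Its other probe set gave 1.12 and the mean of both 1.76, and on both probe sets WT replicate 1 lay above all iTreg arrays. Without that array Hopx was called at 3.87 (limma adjusted p = 0.0296; 0.0296 to 0.935 over its alternatives). WT replicate 1 was thus the highest WT array for Hopx, as it was for Ctla2a, Ctla2b, the 3 granzymes, Prf1 and Serpinb9.

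Of 26 killer cell receptors and adaptors 10 were tested and limma called 0, with 1 higher and 0 lower at an unadjusted p under 0.05 and a median of 0.025, which was -0.11 without iTreg replicate 2 and 0.47 without iTreg replicate 3. The one was the inhibitory receptor Klrg1 at 1.83 (limma adjusted p = 0.0996), with every iTreg array (995 to 1195) above every WT array (203 to 458). Cd244a differed by 0.89, Slamf7 by -0.63 and Tyrobp by 0.40 (limma adjusted p = 0.762, 0.810 and 0.824). Tyrobp was above the control limit on 1 of 6 arrays, Slamf7 on 4 and Cd244a on 5. The difference of Cd244a was 0.31 without WT replicate 3 and 1.40 without iTreg replicate 3.

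**Figure D4:**
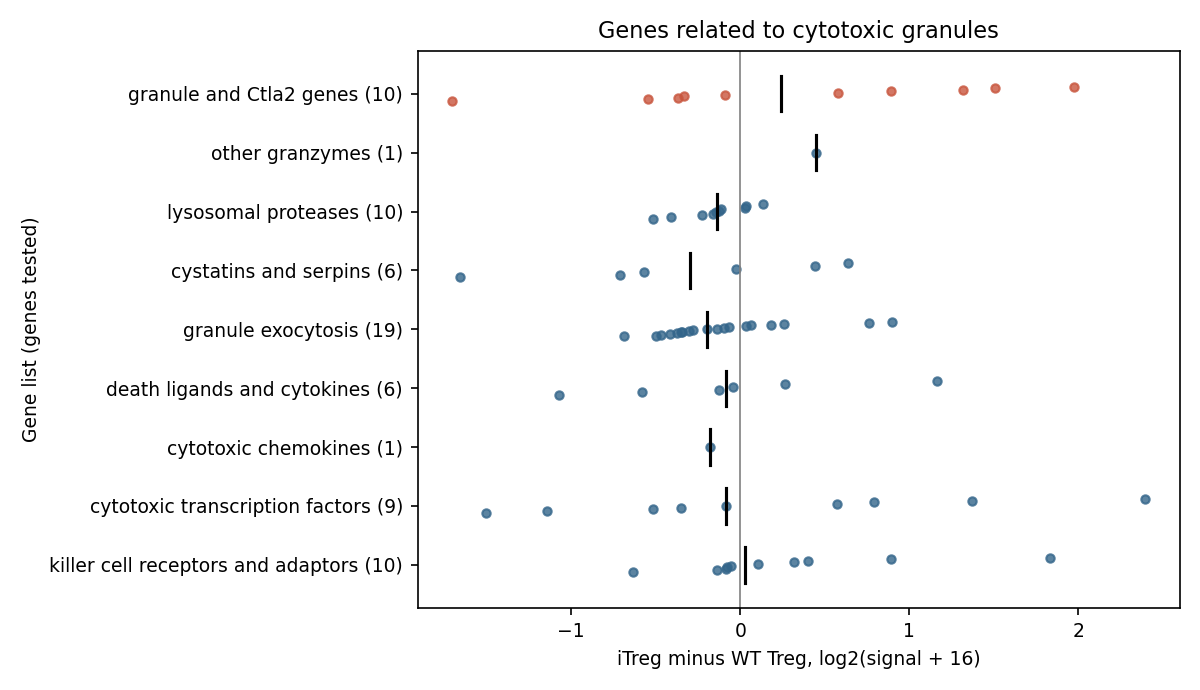
Log2 difference (iTreg minus WT Treg) of each tested gene by list, with the number tested in parentheses and black bars for list medians; the 10 granule and Ctla2 genes are in the top line. The list medians lie between -0.30 and 0.45, and single genes reach from -1.70 (Ctsw) to 2.39 (Hopx).

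Other cells could carry granule genes, so their markers were read on the same arrays. T cell markers were above the control limit on all arrays for 5 of 5 measured genes and Treg markers for 6 of 7, the exception being Foxp3, whose only probe set gave 9.16 to 54.6. The Treg list summed to 8469 to 9597 in iTreg and 13280 to 17120 in WT Treg. Of its 7 genes 4 (Il2ra, Ikzf2, Tnfrsf18 and Tnfrsf4) were lower on every iTreg array than on every WT array, and the part of this in the granule genes was not tested. The T cell list summed to 13280 to 16520 in iTreg and 11760 to 17340 in WT Treg. Nrp1, on which the iTreg were gated, differed by -2.08 (limma adjusted p = 0.0758). On WT replicate 1, which carries the Nrp- label, its signal was 708. It was 862 and 1189 on the other WT arrays and 252, 133 and 238 in iTreg. The other Nrp1 probe sets also read higher on WT replicate 1 than on every iTreg array. Of 4 measured NK cell markers 3, among them Ncr1 and Klre1, stayed within the control range on all arrays. The summed signal of the NK list was 60.1 to 188 in iTreg and 33.8 to 116 in WT Treg, with Cd244a the largest contributor on every array. Both CD8 T cell markers were above the limit on all arrays. Cd8a gave 30.9, 93.03 and 33.5 in iTreg against 43.8, 39.8 and 39.2 in WT Treg, and Cd8b1 gave 69.6, 132 and 70.0 against 63.3, 33.7 and 34.0, higher on every iTreg array. Their sum was 100.5 to 225 in iTreg and 73.2 to 107 in WT Treg. It was highest on iTreg replicate 2. On that array Gzma, Gzmb, Ctsw, Nkg7, Srgn and Serpinb9 had their lowest iTreg signals, Ctla2b its highest, and Ctla2a, Gzmk and Prf1 lay between. The part of CD8 T cells in these signals was not tested.

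Of 6 mast cell markers 4, Cpa3 among them, stayed within the control range, and the list summed to 71.5 to 97.4 in iTreg and 47.7 to 86.3 in WT Treg. The 4 neutrophil markers summed to 65.4 to 177 in iTreg against 26.5 to 32.5 in WT Treg. S100a9 gave 51.8, 78.5 and 33.02 in iTreg and lay within the control range in WT Treg. S100a8 gave 16.8, 91.2 and 18.1 in iTreg against 1.59, 9.44 and 12.7, above the control limit on 1 array, and Elane and Mpo were within the control range on all arrays. Of 6 myeloid markers 3 stayed within the control range, with sums of 61.1 to 164 and 54.4 to 98.01, and so did 3 of 5 B cell markers, with sums of 56.05 to 119 and 74.4 to 120.4. The myeloid marker Lyz2 was higher on every iTreg array, at 44.6, 44.2 and 23.1 against 21.95, 9.01 and 8.79, and above the control limit on 2 arrays. Of 4 markers of plasmacytoid dendritic cells 3 were above the limit on all arrays and Siglech was within the control range, and the list summed to 352 to 483 in iTreg and 369 to 485 in WT Treg. The part of other cells in the granule genes was not tested beyond these values, and in sorted bulk RNA more cells that express a gene and more RNA per cell cannot be told apart.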

How the data were processed

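The authors deposited MAS5 intensity signals on a linear scale, 1 per probe set and array, per the submitters' processing notes; no MAS5 version is given there. A 2% trimmed mean of 150.0 on every array shows scaling before deposit. Per the labels' protocols, Trizol and biotin were used for extraction and labelling, and the number of arrays limits the precision. The platform table gave 34945 probe sets 1 symbol, 932 several and 9160 none; symbols were updated to RefSeq names of GRCm38.p6, and probe sets with several symbols entered no test. Signals were transformed as log2(signal + 16), and genes whose mean reached the 40th percentile (4.99) were tested, 10916 in all, with limma 3.58.1 in R 4.3.3 (lmFit, eBayes with trend, Benjamini-Hochberg adjustment at 0.05, two-sided). The code was tested on simulated data. Groups were taken from sample titles; p-values measure array-to-array spread, which may be technical. The members and lists were chosen with earlier results of these data known. Named were all members, and from each other list the genes with the smallest p: up to 4, or 2 where fewer than 8 genes were tested. Alternatives were other pseudocounts, normalizations, filters, variance models, probe set rules, Welch's test (separate variances per group), a replicate block and arrays left out; leaving out both replicate 2 arrays, and arrays for the control range count, was added after seeing the data.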

Additional observations from a re-analysis of the deposited data

How the results depend on the processing

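Over all genes limma called 3. Pseudocount 1 gave 0 (794 at an unadjusted p under 0.05), no filter 0 (1156), Welch's test 0 (472), both arrays with label doubts left out 0 (560) and both replicate 3 arrays left out 0 (636). Median scaling gave 8, 1 higher and 7 lower, and array weights 14, 1 higher and 13 lower. Leaving out single arrays gave 0 (iTreg replicates 1 and 3, WT replicates 2 and 3) to 1 (iTreg replicate 2, WT replicate 1). The cause was not tested. With the replicate number as a block limma called 3 genes (1014 at an unadjusted p under 0.05) and 0 members. Same-numbered arrays deviated together with correlations of 0.169, 0.0456 and 0.13, and arrays of unlike number with -0.172 to 0.053. With 3 arrays a group these values cannot decide whether the numbers pair the arrays. The count of 6 members above the control limit on all arrays was 6 to 8 without single arrays and 9 without both replicate 2 arrays. The members' median was 0.050 to 0.35 without single arrays. Differences that changed sign were those of the members Prf1 with the mean of probe sets (0.054) and Nkg7 (0.017) and Serpinb9 (0.0042) without iTreg replicate 2, and of the other named genes, all uncalled, those of Ccl5 with array weights (0.099), without both replicate 3 arrays (0.32) and without single arrays (-0.67 to 0.081), Ctsz with the mean of probe sets (0.25) and without single arrays (-0.50 to 0.11), Foxp3 without single arrays (-0.11 to 0.54) and Slamf7 without both replicate 3 arrays (0.10). Nrp1 was called with array weights (-1.98) and with the mean of probe sets (-2.24). Ctla2b, Gzma, Gzmk and Nkg7 each lay within the control range on 1 array, where a difference has no firm size.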
